A study of Homo sapiens with 12 samples.

Results

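The death and decoy receptors for TRAIL, the FAS receptor, both TNF receptors and CD40 were followed in HL60 cells together with the ligands TNFSF10 (TRAIL) and TNFSF13B (BAFF). These 10 genes were chosen by name from 59251 genes in a table of RNA-Seq counts. Of the 10, 9 passed the filter on low counts, which kept 13318 genes, and CD40 did not. The libraries fell into 4 groups of 3, which the labels call biological replicates without saying what separated them. Non-treated cells were compared with cells that received 1 µM all-trans retinoic acid (ATRA), palbociclib at 1 µM, an inhibitor of CDK4/6 (CDK4/6i), or both at these doses (CDK4/6i+ATRA), each for 48 h. HL60 is a single human myeloid leukemia line, so all 4 groups share its genetic background, and p-values measure the spread between these libraries. ATRA is a ligand of retinoic acid receptors that drives myeloid maturation, and palbociclib blocks the kinases that carry cells from G1 into S phase.

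TNF superfamily ligands act as trimers on cell surface receptors. TNFRSF10A and TNFRSF10B (the TRAIL receptors DR4 and DR5), FAS and TNFRSF1A carry a cytoplasmic death domain, through which FADD or TRADD can bring caspases to the receptor. TNFRSF10C lacks a cytoplasmic domain and TNFRSF10D has a truncated death domain, so both bind TRAIL as decoys without passing on a death signal. TNFRSF1B and CD40 have no death domain and signal through TRAF proteins to NF-κB. TNFSF13B is a survival factor for B cells that myeloid cells secrete, and TRAIL is made by myeloid and other immune cells.

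Promoters are shown first for the ligands, which changed in the same direction with each drug, and for both TNF receptors, which both rose with ATRA and with CDK4/6i+ATRA. Each line gives the 250 bases before a start site, 5′ to 3′ on the strand of the gene, from RefSeq on GRCh38.p14. Capitals mark letters that match a searched motif on either strand.
TNFSF10, minus strand, chr3:172523431-172523680: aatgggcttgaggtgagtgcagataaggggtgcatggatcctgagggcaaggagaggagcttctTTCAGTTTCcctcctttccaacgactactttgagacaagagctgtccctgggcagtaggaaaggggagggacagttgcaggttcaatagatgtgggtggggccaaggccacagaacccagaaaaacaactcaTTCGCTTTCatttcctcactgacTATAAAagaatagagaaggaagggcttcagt
TNFSF13B, plus strand, chr13:108269379-108269628: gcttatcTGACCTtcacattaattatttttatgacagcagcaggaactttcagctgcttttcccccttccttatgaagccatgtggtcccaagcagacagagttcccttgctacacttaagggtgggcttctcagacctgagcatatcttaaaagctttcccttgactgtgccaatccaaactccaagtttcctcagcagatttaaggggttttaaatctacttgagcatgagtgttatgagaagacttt
TNFRSF1A, minus strand, chr12:6342077-6342326: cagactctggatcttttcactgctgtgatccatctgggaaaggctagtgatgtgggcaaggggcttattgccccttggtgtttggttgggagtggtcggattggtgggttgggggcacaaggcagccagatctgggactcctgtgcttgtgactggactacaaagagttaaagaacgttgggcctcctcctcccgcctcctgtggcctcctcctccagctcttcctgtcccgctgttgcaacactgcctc
TNFRSF1B, plus strand, chr1:12166741-12166990: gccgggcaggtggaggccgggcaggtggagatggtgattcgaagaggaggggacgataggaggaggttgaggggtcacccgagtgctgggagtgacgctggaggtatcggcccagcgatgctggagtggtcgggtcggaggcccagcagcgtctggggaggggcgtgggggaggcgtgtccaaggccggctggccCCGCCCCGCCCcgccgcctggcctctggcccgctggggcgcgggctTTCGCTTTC

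Promoters of 5 members with 8 start sites were searched on both strands, in windows that ran from 250 bases before to 50 after a start site. The TRAIL receptor genes TNFRSF10A, TNFRSF10B, TNFRSF10C and TNFRSF10D, all on chromosome 8, were left out of this search. CD40 was not searched either, so nothing is said here of the promoters of these genes. The motifs were GAAANNGAA for interferon regulatory factors, AGGTCA for nuclear receptors, TGANTCA for AP-1, GGGCGG (the GC box), TATAAA and the NF-κB consensus. They were present in 8.11%, 13.8%, 7.71%, 45.0%, 11.5% and 11.3%, respectively, of 35116 promoter windows of the same length. The TNFSF10 promoter held GAAANNGAA at -186 to -178 and at -54 to -46, both on the strand opposite to the gene, and TATAAA at -31 to -26. At the TNFSF13B start site shown, the window held AGGTCA on the opposite strand at -243 to -238. It also held GAAANNGAA at 19 to 27 after that start site, outside the stretch shown. Relative to another TNFSF13B start site, further downstream, the same GAAANNGAA lay before the start, at -71 to -63. The TNFRSF1B promoter held 2 overlapping GC boxes between -55 and -45, and GAAANNGAA on the opposite strand at -9 to -1. None of the 6 motifs was found in the TNFRSF1A window. At FAS, TGANTCA was found at -242 to -236 of one start site, the NF-κB consensus at -157 to -148 of another, and GGGCGG in all 3 windows. These matches describe letters in the sequence, and binding was not measured here.

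Total counts ranged from 12230923 to 18679544 per library, and were lowest in the 3 libraries with both drugs. Levels are given as CPM, counts relative to the library total after scaling by the TMM factors of edgeR, and levels of different genes are compared per kilobase of gene length (RPKM), except where counts not divided by length are named. Of 10 myeloid markers, 7 had counts in every group, with a summed level between 1585 and 7273 CPM. Of these, 6 were over 1 CPM in every group, and CD14 held only 16 counts in all 12 libraries. ELANE, AZU1 and PRTN3 were listed at 0 in all 12 libraries. The table places these 3 genes on an alternate contig as well as on their chromosome, and of 2724 genes placed so 73.1% were listed at 0, against 51.6% of all other genes. A 0 from the counting and a lack of expression cannot be told apart. No member was placed on an alternate contig. MPO, the peroxidase of myeloid granules, stood at 6517 ± 167 CPM in non-treated cells and at 28.0 ± 5.15 with both drugs (mean ± SD, n = 3), and ITGAM (CD11b) at 9.25 ± 0.947 and 590 ± 13.4. Summed levels were at most 3.06 CPM for T cell markers, 25.0 for B cell markers (nearly all CD79A, with MS4A1 at 0), 1.32 for erythroid, 0.0627 for epithelial and 0.466 for stromal markers. These myeloid markers moved with the groups, and their part in the results was not tested. In such bulk samples, fewer cells that express a gene and less RNA per cell cannot be told apart.

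The members changed in nearly every comparison, in both directions. Calls used edgeR's quasi-likelihood test at a Benjamini-Hochberg adjusted p under 0.05 over all 13318 tested genes. With ATRA, 5 of the 9 tested members were higher than in non-treated cells and 3 lower, where 32.1% of all tested genes were called higher and 35.5% lower. With CDK4/6i, 6 were higher and 2 lower, beside 28.3% and 27.9% of all genes. With CDK4/6i+ATRA, 5 were higher and 3 lower than in non-treated cells, beside 41.0% and 40.7% of all genes. TNFRSF10C, called higher in all 3, was below the filter's limit of 0.632 CPM, taken before scaling, in every non-treated library and entered through the treated groups, so its calls against non-treated cells are a description. Because so many genes changed in these cells, the number of calls does not set the members apart, and their sizes are described below. All 3 comparisons share the same non-treated libraries.

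**Figure D1:**
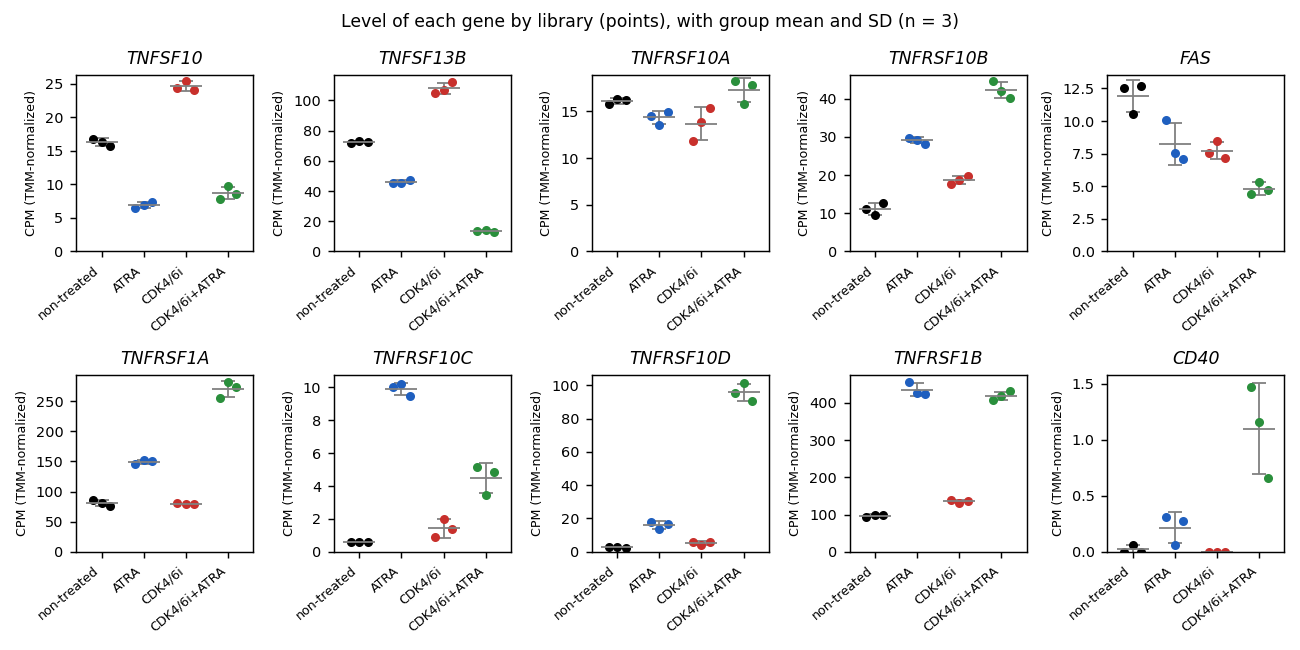
Level of the 10 genes in each library, in TMM-normalized CPM on an axis from 0, with 1 panel per gene and 1 point per library. Horizontal lines give the mean and bars the SD of the 3 libraries of a group. TNFRSF10D stood at 90.8 to 101 CPM with CDK4/6i+ATRA and at 18.1 or lower elsewhere, whereas TNFRSF10C was highest with ATRA alone.

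Both ligands fell with ATRA and rose with CDK4/6i, and with both drugs TNFSF13B fell below its level with ATRA. TNFSF10, the ligand TRAIL (chr3:172505508-172523430 on hg38), stood at 16.8, 16.4 and 15.7 CPM in non-treated cells and at 24.4, 25.4 and 24.0 with CDK4/6i. Its levels were 6.53, 6.94 and 7.40 CPM with ATRA and 7.88, 9.72 and 8.51 with CDK4/6i+ATRA. The CDK4/6i libraries were the highest, both groups with ATRA were the lowest, and no groups overlapped. ATRA lowered TNFSF10 with a log2 fold change of -1.22 ± 0.10 (SE, adjusted p = 8e-15), which is 2.33-fold. CDK4/6i raised it by 0.59 ± 0.09 on the log2 scale (adjusted p = 5.1e-08). The difference of CDK4/6i+ATRA from non-treated cells was -0.90 ± 0.11 (adjusted p = 2.1e-10). Adding CDK4/6i to ATRA gave a log2 fold change of 0.32 ± 0.12 (adjusted p = 0.02), a call that was lost without ATRA replicate 1 (0.27, adjusted p = 0.076) or CDK4/6i+ATRA replicate 2 (0.23, adjusted p = 0.15). It was also lost under scaling by library size alone (0.013, adjusted p = 0.927), without a filter (0.23, adjusted p = 0.22) and with only the groups compared in the model (0.25, adjusted p = 0.11).

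TNFSF13B, the ligand BAFF (chr13:108269629-108308484), was the more abundant ligand per length in every group, at 26.0 against 5.45 RPKM for TNFSF10 in non-treated cells. It stood at 72.1, 73.4 and 72.3 CPM in non-treated cells, 45.4, 45.7 and 47.4 under ATRA, and 105, 107 and 112 under CDK4/6i. With CDK4/6i+ATRA it was at 13.7, 14.2 and 13.1 CPM, the lowest of the 4 groups, and no groups overlapped. The log2 fold changes against non-treated cells were -0.65 ± 0.05 with ATRA (adjusted p = 2.6e-16), 0.57 ± 0.05 with CDK4/6i (adjusted p = 2.1e-15) and -2.41 ± 0.07 with CDK4/6i+ATRA (adjusted p = 1.3e-34), a 5.33-fold fall. CDK4/6i thus raised TNFSF13B in cells without ATRA and lowered it by 1.76 ± 0.07 on the log2 scale in cells with ATRA (adjusted p = 2.7e-27). The interaction, which is the log2 change with both drugs minus the sum of the changes with each, was -2.34 ± 0.08 (adjusted p = 3.9e-28).

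Interactions were called positive for 3 members and negative for 3, beside 24.5% and 27.0% of all tested genes. The negative calls include TNFRSF10C, which passed the filter through the treated groups, so its interaction is a description. For TNFSF10 the interaction was -0.27 ± 0.15 (adjusted p = 0.13), with a 95% interval from -0.58 to 0.03, and under scaling by library size alone it was called (-0.59, adjusted p = 0.0008). The 2 ligands shared the direction of each single-drug change. The difference between the interactions of the 2 genes was not tested.

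Among the death receptors, TNFRSF10B and TNFRSF1A rose with ATRA and further with both drugs, FAS fell with every treatment, and TNFRSF10A had the narrowest range, with group means from 13.7 to 17.3 CPM. TNFRSF10B (DR5) was at 11.1, 9.59 and 12.7 CPM in non-treated cells, 29.8, 29.3 and 28.2 under ATRA, 17.7, 18.7 and 19.8 under CDK4/6i, and 44.5, 42.1 and 40.2 with CDK4/6i+ATRA. The groups followed each other in the order non-treated, CDK4/6i, ATRA and CDK4/6i+ATRA without overlap. The log2 fold changes against non-treated cells were 1.38 ± 0.09 with ATRA (adjusted p = 1.3e-19), 0.75 ± 0.09 with CDK4/6i (adjusted p = 1e-09) and 1.92 ± 0.09 with both (adjusted p = 9.1e-26). The last is a 3.78-fold rise, and the interaction of -0.21 ± 0.12 did not pass the test (adjusted p = 0.15, 95% interval from -0.44 to 0.03). It was called under scaling by library size alone (-0.52, adjusted p = 0.00057) and without non-treated replicate 3 (-0.32, adjusted p = 0.032).

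TNFRSF10A (DR4) stood at 15.7, 16.4 and 16.2 CPM in non-treated cells, 14.5, 13.5 and 15.0 under ATRA, 11.9, 13.9 and 15.3 under CDK4/6i, and 18.2, 15.8 and 17.8 with CDK4/6i+ATRA. The non-treated libraries overlapped those with both drugs, and the ATRA libraries overlapped those with CDK4/6i. Its difference from non-treated cells was -0.17 ± 0.10 with ATRA (adjusted p = 0.12, 95% interval from -0.36 to 0.03) and 0.10 ± 0.10 with both drugs (adjusted p = 0.34, 95% interval from -0.10 to 0.30), on the log2 scale. With CDK4/6i it was -0.24 ± 0.10 (adjusted p = 0.031), a call that was lost without non-treated replicate 2 (adjusted p = 0.075) or 3 (0.067), or CDK4/6i replicate 1 (-0.15, adjusted p = 0.24) or 2 (0.0501), under scaling by library size alone (0.052) and with DESeq2 (0.07). The interaction was 0.51 ± 0.14 (adjusted p = 0.0019), and it was 0.19 (adjusted p = 0.27) when libraries were scaled by size alone.

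In pairs of treated groups, CDK4/6i+ATRA against ATRA gave 5 members called higher and 3 lower, beside 36.9% and 32.8% of all genes. Against CDK4/6i, it gave 6 higher and 3 lower, beside 39.1% and 39.5%. TNFRSF10A was among those called higher than with ATRA, at 0.27 ± 0.10 on the log2 scale (adjusted p = 0.017), but the direction turned to -0.038 (adjusted p = 0.757) under scaling by library size alone. The same call was lost without ATRA replicate 2 (0.22, adjusted p = 0.078), or CDK4/6i+ATRA replicate 1 (0.23, adjusted p = 0.07) or 3 (0.24, adjusted p = 0.059), without a filter (0.18, adjusted p = 0.22) and with only the groups compared (0.20, adjusted p = 0.072). TNFRSF10B rose by 0.54 ± 0.07 in the same comparison (adjusted p = 1.2e-08).

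FAS (chr10:88964050-89017059) fell with each drug and further with both. It was at 12.6, 10.5 and 12.7 CPM in non-treated cells, 10.1, 7.58 and 7.07 under ATRA, 7.52, 8.43 and 7.20 under CDK4/6i, and 4.40, 5.35 and 4.71 with CDK4/6i+ATRA. All treated libraries were below all non-treated ones, the single-drug groups overlapped, and the CDK4/6i+ATRA libraries were below all others. The log2 fold changes were -0.54 ± 0.13 with ATRA (adjusted p = 0.00019), -0.63 ± 0.13 with CDK4/6i (adjusted p = 2.8e-05) and -1.31 ± 0.15 with both drugs (adjusted p = 5.5e-11), a 2.48-fold fall. The interaction was -0.14 ± 0.20 (adjusted p = 0.61), with a 95% interval from -0.55 to 0.28. On top of ATRA, CDK4/6i lowered FAS by 0.77 ± 0.16 on the log2 scale (adjusted p = 3e-05). FAS had the lowest level per length of the death receptors, 0.725 ± 0.0732 RPKM in non-treated cells, over an annotated length of 16436 bases. This rank depends on that length, since in CPM the non-treated mean was 11.9 for FAS and 11.1 for TNFRSF10B. It shares 164 exonic bases with ACTA2 and 196 with FAS-AS1 on the opposite strand, which held 115 and 7 counts in all libraries beside 1595 for FAS.

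TNFRSF1A (TNFR1, chr12:6328771-6342076), the death receptor for TNF, was the most abundant death receptor per length, at 35.4 ± 2.17 RPKM in non-treated cells. It stood at 85.7, 81.3 and 75.8 CPM in non-treated cells, 146, 152 and 151 under ATRA, and 80.2, 79.1 and 78.9 under CDK4/6i. With CDK4/6i+ATRA it reached 256, 282 and 273 CPM. The CDK4/6i libraries lay within the range of the non-treated ones, and both groups with ATRA were above them, with no overlap between the latter. ATRA raised TNFRSF1A by 0.89 ± 0.04 on the log2 scale (adjusted p = 1.5e-23). The difference with CDK4/6i alone was -0.03 ± 0.05 (adjusted p = 0.67), with a 95% interval from -0.12 to 0.07. In cells with ATRA, CDK4/6i raised it by 0.85 ± 0.04 (adjusted p = 3.1e-24), and the interaction was 0.88 ± 0.06 (adjusted p = 3.7e-17). Both drugs together gave a 3.34-fold rise over non-treated cells, with a log2 fold change of 1.74 ± 0.04 (adjusted p = 1.4e-36).

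**Figure D2:**
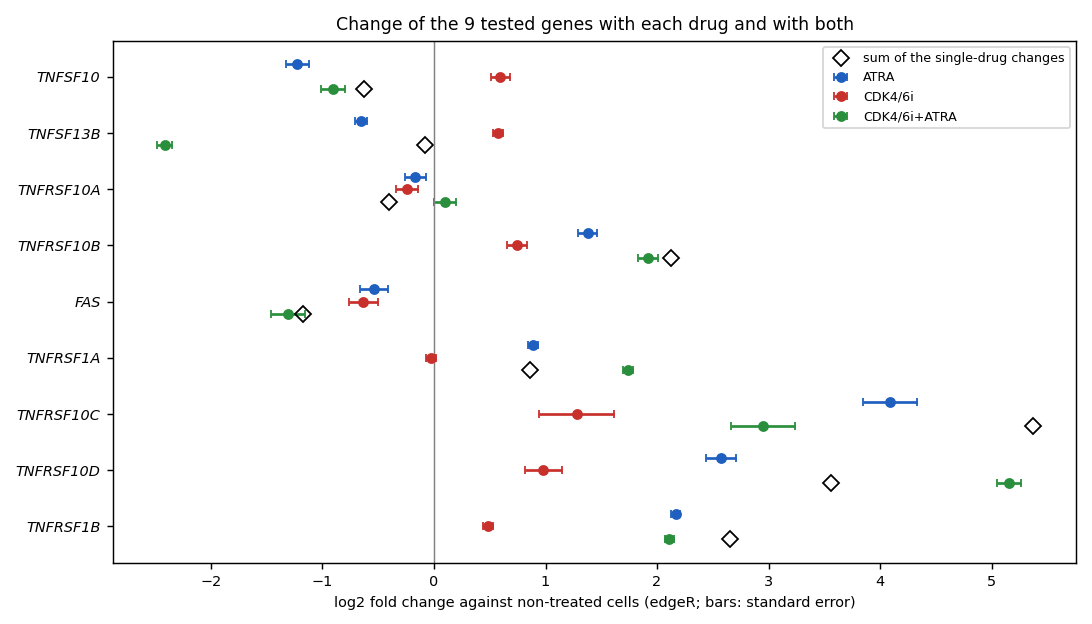
Log2 fold changes of the 9 tested genes against non-treated cells with ATRA, CDK4/6i and CDK4/6i+ATRA (filled points, with bars of 1 standard error). Open diamonds give the sum of the single-drug changes, and their distance from the CDK4/6i+ATRA point is the interaction. That distance was -2.34 for TNFSF13B, -2.42 for TNFRSF10C and 1.60 for TNFRSF10D, and -0.14 for FAS.

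The decoy receptors had the largest positive log2 fold changes of the 9 tested members in each comparison with non-treated cells, and each was highest in a different group. TNFRSF10C held 10, 9 and 10 counts in non-treated cells and 163, 175 and 172 with ATRA. It held 17, 33 and 24 counts with CDK4/6i and 56, 39 and 59 with CDK4/6i+ATRA. In CPM these were 0.601, 0.564 and 0.563 in non-treated cells, 10.0, 10.2 and 9.50 under ATRA, 0.882, 2.02 and 1.40 under CDK4/6i, and 5.13, 3.48 and 4.88 with both. The groups did not overlap, and the level with both drugs lay between those with CDK4/6i and with ATRA alone. Because TNFRSF10C passed the filter through the treated groups, its differences from non-treated cells are given without a test. The fitted level with ATRA was 17.0-fold that of non-treated cells, a log2 fold change of 4.09 ± 0.24, and the log2 fold change was 1.28 ± 0.34 with CDK4/6i and 2.95 ± 0.29 with both drugs. In cells with ATRA, CDK4/6i lowered it 2.20-fold, by -1.14 ± 0.18 on the log2 scale (adjusted p = 1.7e-07). The interaction, which rests on the non-treated libraries as well, was -2.42 ± 0.38 and is likewise given without a test.

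TNFRSF10D rose most with both drugs. It was at 2.58, 3.07 and 2.42 CPM in non-treated cells, 18.1, 13.6 and 16.5 under ATRA, 5.81, 4.16 and 5.85 under CDK4/6i, and 95.2, 101 and 90.8 with CDK4/6i+ATRA. No groups overlapped. The log2 fold change with both drugs was 5.15 ± 0.11 (adjusted p = 5.8e-40), a 35.6-fold rise and the largest of the 9 members in that comparison. ATRA alone gave 2.58 ± 0.14 (adjusted p = 1.3e-22) and CDK4/6i alone 0.98 ± 0.17 (adjusted p = 1.8e-06), on the log2 scale. Adding CDK4/6i to ATRA raised TNFRSF10D by a further 2.58 ± 0.08 (adjusted p = 3e-32), or 5.97-fold, where it had lowered TNFRSF10C. The interaction of 1.60 ± 0.20 (adjusted p = 2e-09) was opposite in sign to that of TNFRSF10C.

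The 4 TRAIL receptor genes lie close together on chromosome 8 and are related in sequence, so how reads were divided among them is uncertain. TNFRSF10C also shares 261 exonic bases with LOC254896 on the same strand, which held 89 counts in all libraries beside 767 for TNFRSF10C. TNFRSF10B shares 67 bases with RHOBTB2 on the opposite strand, which held 3143 counts beside 4490 for TNFRSF10B. The part of these overlaps in the results was not tested.

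Per length, the decoys made up a growing part of the TRAIL receptor transcripts in treated cells. Their share of the summed RPKM of the 4 receptors was 11.8% ± 1.24 in non-treated cells, 48.0% ± 0.787 under ATRA, 20.5% ± 0.533 under CDK4/6i and 64.1% ± 1.29 with CDK4/6i+ATRA (SD, n = 3). These shares did not overlap between groups. The sum itself was 9.95 ± 0.295 RPKM in non-treated cells, 24.3 ± 0.833 under ATRA, 12.3 ± 1.11 under CDK4/6i and 47.3 ± 1.34 with both. Both parts contributed to that rise, since the death receptors TNFRSF10A and TNFRSF10B together went from 8.77 to 17.0 RPKM and the decoys from 1.17 to 30.3 between non-treated cells and both drugs. The leading receptor differed as well. TNFRSF10A held 60.2% of the sum in non-treated cells and 13.6% with both drugs. TNFRSF10B held 30.0% with ATRA, close to 29.3% for TNFRSF10C, and the libraries of these shares overlapped. TNFRSF10D went from 7.68% in non-treated cells to 57.3% with both drugs. The TRAIL transcript TNFSF10 stood at 5.45, 2.33, 8.23 and 2.91 RPKM in non-treated, ATRA, CDK4/6i and CDK4/6i+ATRA cells. These shares are descriptions of transcripts, with no test.

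**Figure D3:**
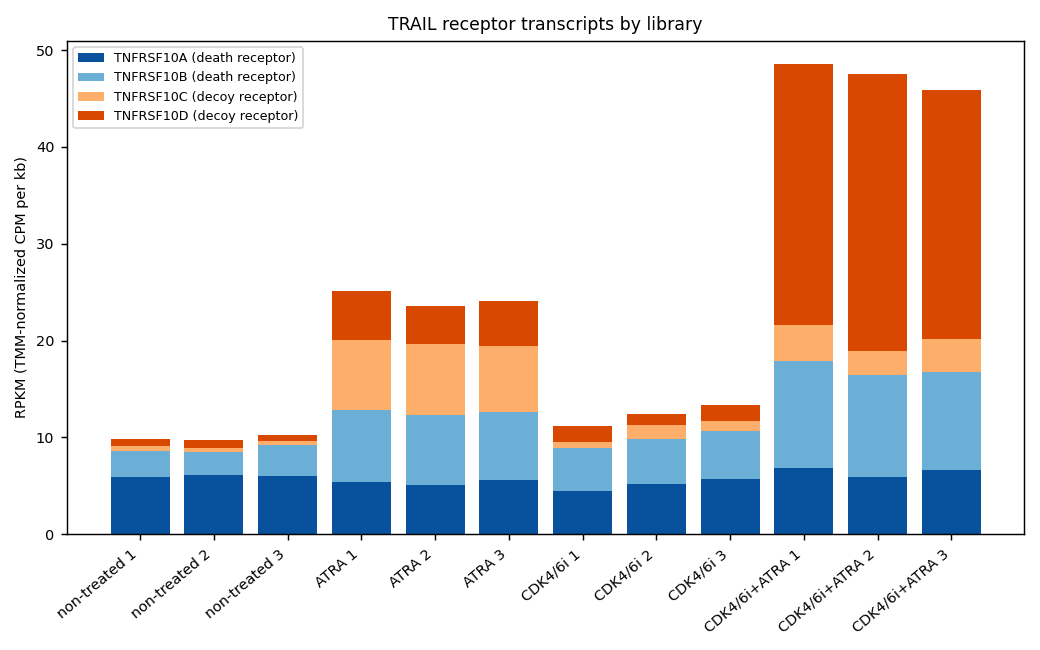
Stacked RPKM of the 4 TRAIL receptor transcripts in each of the 12 libraries, on an axis from 0. Blue marks the death receptors TNFRSF10A and TNFRSF10B and orange the decoys TNFRSF10C and TNFRSF10D. The decoys took 11.8% of the bar in non-treated cells and 64.1% with CDK4/6i+ATRA, on average, and TNFRSF10D made up most of the latter.

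Of the receptors without a death domain, TNFRSF1B (TNFR2, chr1:12166991-12209220), the second receptor for TNF, rose with ATRA, and its levels with and without CDK4/6i on top of ATRA overlapped. It stood at 93.0, 99.0 and 99.3 CPM in non-treated cells and 457, 426 and 424 with ATRA. With CDK4/6i it was at 138, 132 and 137 CPM, and with CDK4/6i+ATRA at 408, 418 and 431. Both groups with ATRA were far above the other groups, and the CDK4/6i libraries were all above the non-treated ones. The log2 fold changes against non-treated cells were 2.17 ± 0.04 with ATRA (adjusted p = 2.8e-41), a 4.49-fold rise, 0.49 ± 0.04 with CDK4/6i (adjusted p = 4.9e-14) and 2.11 ± 0.04 with both (adjusted p = 3.7e-41). CDK4/6i+ATRA differed from ATRA by -0.06 ± 0.04 (adjusted p = 0.18, 95% interval from -0.13 to 0.02), but it was called lower under scaling by library size alone (-0.36, adjusted p = 1.5e-11), without a filter (-0.15, adjusted p = 0.0025) and with only the groups compared (-0.13, adjusted p = 0.0075). The interaction was -0.54 ± 0.06 (adjusted p = 1.5e-11).

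The difference between the 2 TNF receptors in their response to CDK4/6i on top of ATRA was not itself tested. TNFRSF1A made up 69.9% ± 1.99 of their summed RPKM in non-treated cells, 49.0% ± 1.60 under ATRA, 62.0% ± 0.487 under CDK4/6i and 64.3% ± 0.914 with CDK4/6i+ATRA (SD, n = 3). The ATRA libraries held the lowest share, without overlap with any other group. Not divided by length, the TNFRSF1A share of the counts was 45.4% in non-treated cells, 25.6% under ATRA, 36.9% under CDK4/6i and 39.2% with both drugs, so by counts TNFRSF1B was the larger in every group. The sum of both receptors was 50.5, 133, 56.0 and 184 RPKM in non-treated, ATRA, CDK4/6i and CDK4/6i+ATRA cells.

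Compared with CDK4/6i alone, both ligands and FAS were lower with CDK4/6i+ATRA, with log2 fold changes of -1.50 ± 0.10 for TNFSF10 (adjusted p = 2.2e-18), -2.99 ± 0.06 for TNFSF13B (adjusted p = 3.4e-39) and -0.68 ± 0.16 for FAS (adjusted p = 0.00017). The rises ran from 0.34 ± 0.10 for TNFRSF10A (adjusted p = 0.0023) to 4.17 ± 0.09 for TNFRSF10D (adjusted p = 3.6e-38). The other 4 receptors rose by 1.17 ± 0.08 (TNFRSF10B), 1.62 ± 0.04 (TNFRSF1B), 1.67 ± 0.24 (TNFRSF10C) and 1.77 ± 0.04 (TNFRSF1A). The call for TNFRSF10A was lost under scaling by library size alone (0.063, adjusted p = 0.59) and without a filter (0.24, adjusted p = 0.052).

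CD40 (chr20:46118314-46129858), a receptor of antigen-presenting cells for the T cell ligand CD40LG, was near the limit of detection. It held 0, 1 and 0 counts in non-treated cells, 5, 1 and 5 under ATRA, 0, 0 and 0 under CDK4/6i, and 16, 13 and 8 with CDK4/6i+ATRA. The libraries with both drugs were above all others, and the ATRA and non-treated libraries overlapped. The count of 0 over the CDK4/6i libraries allows up to 3 counts over the group, or 0.0569 CPM. Against CDK4/6i, the exact conditional 95% interval of the ratio for CDK4/6i+ATRA began at 14.7. The ratio of CDK4/6i+ATRA to ATRA was 5.06, with an exact conditional 95% interval from 2.53 to 11, and that to non-treated cells was 54.4 (9.18 to 2207). These intervals cover counting error only. CD40 did not enter the main test. When every gene with a count was tested by edgeR's quasi-likelihood test, CD40 was called higher with ATRA than in non-treated cells (adjusted p = 0.035), although their libraries overlapped. CDK4/6i+ATRA was called higher than non-treated cells (adjusted p = 2.5e-07), ATRA (0.0034) and CDK4/6i (8.6e-09), while CDK4/6i against non-treated cells (0.57) and the interaction (0.29) were not called. Because the non-treated and CDK4/6i libraries held 0 or 1 counts of CD40, these calls are a description.

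Some genes followed the leading member of each role closely over the 12 libraries, by the Pearson correlation of log2 CPM, which describes 4 groups of replicates more than 12 independent points. TNFRSF10D was followed by QPCT (r = 0.999), CYB561D1 (0.998) and FBXL5 (0.997). TNFRSF1B was followed by NCF1, a subunit of the phagocyte NADPH oxidase, VSIR and NCF1C, each at 0.998. NCF1 and NCF1C are near-identical copies, so their counts are not separate evidence. TNFRSF1A was closest to CTNNB1 (0.998), FAM20C and DAZAP2 (both 0.997), and TNFSF13B to PDZD8 (0.998), CEACAM6 and CCNG1 (both 0.992).

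The genes that act below these receptors rose for the most part with both drugs. Of 15 genes of death signalling, all tested, 13 rose and 1 fell with both drugs, compared with non-treated cells, with a median log2 fold change of 1.27. They included genes that drive and genes that restrain the pathway, and each called gene named from these lists had an adjusted p of 0.009 or lower. CASP8, the initiator caspase of death receptors, rose by 2.00 ± 0.05 on the log2 scale. Its inhibitor CFLAR rose by 1.74 ± 0.05, and BIRC3, an inhibitor of apoptosis bound to TNF receptors through TRAF2, by 3.61 ± 0.13. DIABLO, which antagonizes the inhibitors of apoptosis, fell by 0.32 ± 0.11. In that comparison 41.0% of all tested genes were called higher and 40.7% lower. With CDK4/6i alone, 5 of the 15 rose and 2 fell, beside 28.3% and 27.9% of all tested genes, and with ATRA alone 12 rose and 2 fell, beside 32.1% and 35.5%.

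Among 21 genes of TRAF and NF-κB signalling, 20 were tested, of which 16 rose and 3 fell with both drugs (median 1.07), beside 41.0% and 40.7% of all tested genes. With CDK4/6i alone 5 rose and 6 fell (median 0.018), beside 28.3% and 27.9%, and with ATRA alone 12 rose and 4 fell (median 0.43), beside 32.1% and 35.5%. TRAF1 rose by 4.70 ± 0.21, and NFKB2 and RELB, the subunits of the alternative NF-κB pathway, by 2.84 ± 0.06 and 2.78 ± 0.08. TRAF2, the adaptor shared by TNFRSF1A, TNFRSF1B and CD40, fell by 1.61 ± 0.10, and TAB1 fell by 1.00 ± 0.08. MAP3K14, the kinase that activates NFKB2, fell by 0.52 ± 0.17. The interaction was called positive for 15 of the 20 genes and negative for 1, beside 24.5% and 27.0% of all tested genes.

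Of 16 other TNF superfamily ligands, 7 passed the filter, some of them, such as TNF and TNFSF9, through the groups where they are high, so a count of calls over the list is no support for a direction. TNFSF13 differed by 0.52 ± 0.36 on the log2 scale (adjusted p = 0.18). TNFSF9 (4-1BB ligand) had 3 counts over the non-treated libraries and 1651 with CDK4/6i+ATRA, a ratio of 809 with an exact conditional 95% interval from 276 to 3929. TNFSF14 rose by 2.15 ± 0.07 on the log2 scale. TNF, the ligand of TNFRSF1A and TNFRSF1B, held 1, 1 and 2 counts in non-treated cells, 12, 10 and 6 under ATRA, 1, 4 and 0 under CDK4/6i, and 25, 30 and 38 with both drugs. Its ratio of CDK4/6i+ATRA to non-treated cells was 34.2 (12.9 to 128). The table places TNF on alternate contigs as well as on its chromosome, as it does ELANE, AZU1 and PRTN3, so low counts from the counting and low expression of TNF cannot be told apart. The same holds for LTA and LTB among the other ligands, with 0 and 9 counts in all libraries, and for TNFRSF14 among the other receptors, with 57. FASLG, the ligand of FAS, failed the filter, with 1 count over the non-treated libraries and 1, 15 and 5 counts with CDK4/6i+ATRA.

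Of 21 other TNF receptors, 7 passed the filter, of which TNFRSF4 and TNFRSF9 did so through the groups where they are high. So did TNFRSF21, with means of 3.77 CPM in non-treated cells and 0.382 with ATRA. A count of calls over this list is therefore no support for a direction either. TNFRSF12A (the TWEAK receptor) rose by 1.94 ± 0.16 and RELT by 1.38 ± 0.06, while TNFRSF8 (CD30) fell by 4.73 ± 0.10 and LTBR, the lymphotoxin beta receptor, by 0.32 ± 0.06.

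**Figure D4:**
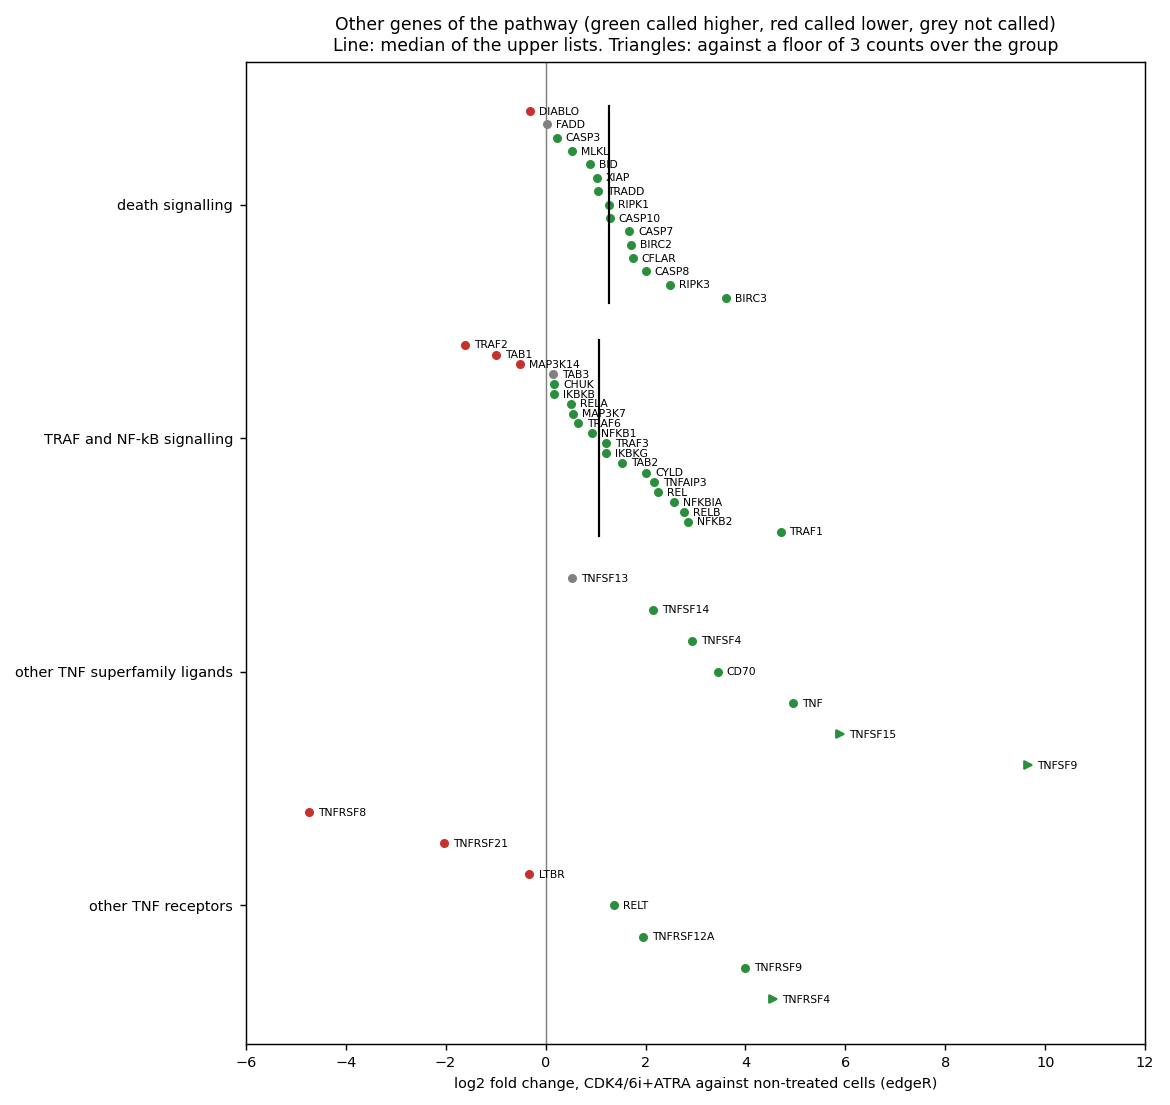
Log2 fold changes between CDK4/6i+ATRA and non-treated cells for the tested genes of the 4 pathway lists, 1 symbol per gene and a vertical line at the median of death signalling and of TRAF and NF-κB signalling. Green marks genes called higher, red called lower and grey not called, and triangles are genes with 3 counts or fewer over the non-treated libraries, drawn against 3 counts. Medians were 1.27 for death signalling and 1.07 for TRAF and NF-κB signalling.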

How the data were processed

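RNA-Seq was performed on 12 libraries of HL60 cells, prepared with a directional kit. According to the submitters' notes, reads were trimmed with Trimmomatic 0.33 and aligned to hg38 with STAR 2.7.11a. The paper names RSEM for quantification, whereas the deposited table, with gene lengths and exon positions, has the layout of featureCounts, and strand counting is not given in the sources used here. The authors deposited raw counts per gene as whole numbers, without normalization, and tested them with DESeq2. Columns were assigned to groups by their labels, and the counts were used as deposited.

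With edgeR 4.0.16 under R 4.3.3, low counts were removed by filterByExpr and libraries scaled by TMM. A two-sided quasi-likelihood model of the 4 groups (8 residual degrees of freedom) gave 5 comparisons and the interaction. P-values were adjusted over all tested genes by Benjamini-Hochberg, with calls under 0.05. Fold changes are fitted values, standard errors are their size divided by the root of F, and intervals use the moderated degrees of freedom. CPM were computed on the TMM-scaled totals of the tested genes and RPKM with the deposited gene length. Ratios of genes near 0 have exact conditional binomial intervals, and a floor of 3 counts over a group gives the level that a count of 0 allows. These intervals cover counting error only. Exact permutation tests were not used for single values, since 3 libraries against 3 cannot give a p below 0.1.

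The 10 members and all gene lists were chosen with earlier results of these data known. The genes named in the other 4 lists are up to 3 of the largest rises and falls with CDK4/6i+ATRA among called genes with a mean of at least 5 CPM, with TNF and FASLG whatever their values. Genes named as most alike are the 3 highest correlations of log2 CPM (prior count 2) with the member highest per kb in each of 4 roles. Other genes named were picked with their values in view.

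The replicate numbers did not pair the libraries, since correlations of same-numbered libraries' deviations from their group means were between -0.0702 and 0.0328 in 18 pairs of libraries. Replicates differed by more than sampling noise in every group, so each counted as 1 sample. Alternatives were DESeq2 size factors, library size alone, no filter, at least 10 counts in every library, the replicate block, only the groups compared, DESeq2 1.42.0, counts not divided by length and leaving out each library. The scripts were tested on simulated data. Figures were drawn with matplotlib 3.10.9.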

Additional observations from a re-analysis of the deposited data

Results flagged for a closer look

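The interaction of ATRA and CDK4/6i was called for 6 members by edgeR's quasi-likelihood test, TNFRSF10C among them as a description only. Of all 13318 tested genes, 24.5% had a positive and 27.0% a negative call. The interaction was -2.34 for TNFSF13B, where CDK4/6i gave 0.57 without ATRA and -1.76 with it, on the log2 scale. It was -2.42 for TNFRSF10C, with 1.28 without and -1.14 with ATRA, where its non-treated libraries were below the filter's limit. In these 2 genes all libraries with CDK4/6i lay above non-treated cells, and all with CDK4/6i+ATRA lay below ATRA. The interaction was 1.60 for TNFRSF10D (0.98 and 2.58) and 0.88 for TNFRSF1A (-0.03 and 0.85). It was -0.54 for TNFRSF1B, with 0.49 without ATRA, and 0.51 for TNFRSF10A, with -0.24 without and 0.27 with ATRA.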

How the results depend on the processing

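In each comparison with non-treated cells 8 of the 9 tested members were called, TNFRSF10C among them as a description. Of all tested genes, 32.1% were called higher and 35.5% lower with ATRA, and 28.3% and 27.9% with CDK4/6i. With both drugs the shares were 41.0% and 40.7%, so these counts do not set the members apart. Under the alternatives the lowest count of called members was 7 in each comparison. The highest was 8 with CDK4/6i and 9 with ATRA or both drugs, where CD40 entered the test as well. Scaling by library size alone shifted the median log2 change of all genes by -0.27 between CDK4/6i+ATRA and non-treated cells, by -0.31 against ATRA and by -0.32 for the interaction. Under it, TNFRSF10A turned to -0.038 (adjusted p = 0.757) in CDK4/6i+ATRA against ATRA and lost its other calls, TNFSF10 went to 0.013 (adjusted p = 0.927) in that comparison, and the interactions of TNFSF10 (-0.59) and TNFRSF10B (-0.52) were called. Without a filter and with only the groups compared, TNFSF10 and TNFRSF10A lost their calls against ATRA, and TNFRSF1B gained one (-0.15 and -0.13). With DESeq2, TNFRSF10A with CDK4/6i alone was not called (-0.23, adjusted p = 0.07). The causes were not tested. With at least 10 counts in every library, TNFRSF10C was not tested. Of the other ligands 1 was then tested and called with both drugs, where 6 of 7 were called before, and of the other receptors 4 of 4, where 7 of 7 were, beside 86.5% and 81.7% of all tested genes. Genes that passed the filter through the groups where they are high are among the 6 and the 7, so these counts are a description.

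With counts not divided by length, the decoy share was 37.4% under ATRA, 17.2% under CDK4/6i and 62.7% under both drugs. TNFRSF1A then made up 45.4% of TNF receptor counts in non-treated cells, 25.6% under ATRA, 36.9% under CDK4/6i and 39.2% under both. The replicate block changed no call, with 8 members called in each comparison with non-treated cells, as without it. When each library was left out in turn, 638 values of members kept their direction and side of the threshold, 9 lost a call and 1 gained one. At this depth CD40 and FASLG held too few counts for the main test.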

Other observations

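A pair of TNF family genes outside the members is given here, picked with their values in view. TNFSF15, a ligand made by myeloid and endothelial cells, had 0 counts over the non-treated libraries and 121 over the CDK4/6i+ATRA libraries, a ratio whose exact conditional 95% interval begins at 47.5. TNFRSF4 (OX40) had 2 and 48 counts, a ratio of 35.3 with an interval of the same kind from 9.25 to 299.8. Both intervals cover counting error only. Both genes passed the filter through the groups where they are high, so these counts are a description, with no test.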
